A study of Mus musculus with 6 samples.

Results

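The Iroquois homeobox genes were followed by RNA sequencing in hair follicle cells that had been sorted from newborn mouse back skin. There were 3 control libraries and 3 of Ring1a-/- Ring1b-/I53A animals, called mutant here. All 6 genes of the mouse family, Irx1 to Irx6, were taken by gene symbol from the 24453 symbols listed for each library. The family was selected on the control and mutant read counts described here, after its difference between the groups was known. The levels and fold changes of the 6 genes are therefore given as a description. Where a fit over all genes called a member, the call is stated, but it is no test of the family. Tests are read for other genes only. Both groups were collected at postnatal day 0. The labels name the first group only as control, with any alleles of its own not given in the sources used here. Mutant animals join loss of Ring1a, a Ring1b allele written as minus and the I53A allele, and no group separates these. The labels name no Cre driver. Separate animals are not named for the 3 samples of a group, so p-values measure only the spread between these samples, which may be technical.

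Iroquois proteins are homeodomain transcription factors of the TALE class, named for extra residues in a loop of the homeodomain. In mammals the genes lie in a pair of clusters of 3 genes each, which arose by duplication of an ancestral cluster. They are known for patterning the neural tube, heart and limb, and in the fly their counterparts pattern the bristle-bearing body wall. Ring1a and Ring1b are ubiquitin ligases, the enzymatic core of Polycomb repressive complex 1, which marks histone H2A and holds many developmental regulators, Iroquois genes among them, at low activity in cells that do not use them. The I53A substitution weakens this activity of Ring1b while the protein remains.

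The chromosome 13 cluster holds Irx1, Irx2 and Irx4 over 1311.7 kb in the GRCm38 build, annotated by GENCODE. Irx1 lies at chr13:71957921-71963723 on the minus strand, Irx2 at chr13:72628820-72634198 on the plus strand and Irx4 at chr13:73260479-73269608 on the plus strand. Irx3, Irx5 and Irx6 lie in this order over 882.4 kb of chromosome 8. Irx3 is at chr8:91798525-91802067 on the minus strand, Irx5 at chr8:92357625-92376286 on the plus strand and Irx6 at chr8:92674288-92680956 on the plus strand. The gaps between neighbouring members ran from 298.0 kb, between Irx5 and Irx6, to 665.1 kb, between Irx1 and Irx2. An antisense gene overlapped Irx3 by 1653 bases and another overlapped Irx6 by 785 bases. Neither antisense symbol is listed in the count files, and with the strand setting of the counting not given in the sources used here, reads of these antisense transcripts cannot be told apart from those of Irx3 and Irx6.

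The homeobox shows how near the members are to each other, and it decides how well short reads can separate them. The following coding stretch lies in the homeobox of all 6 genes and encodes 16 residues that are identical in the 6 proteins. Capitals mark the 6 of 48 bases at which the genes differ, all of them without effect on the protein.
Irx1: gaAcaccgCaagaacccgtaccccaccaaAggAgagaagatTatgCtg
Irx2: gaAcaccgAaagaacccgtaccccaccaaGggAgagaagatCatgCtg
Irx4: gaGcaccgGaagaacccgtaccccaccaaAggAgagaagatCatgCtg
Irx3: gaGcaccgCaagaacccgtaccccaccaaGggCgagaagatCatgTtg
Irx5: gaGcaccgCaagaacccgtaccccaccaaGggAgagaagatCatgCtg
Irx6: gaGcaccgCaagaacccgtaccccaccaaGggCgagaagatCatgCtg
In this stretch Irx3 and Irx6, both of the chromosome 8 cluster, differ at the last capital only.

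The likeness of Irx3 and Irx6 extended further than that of any other pair of members. Their transcripts share 149 bases of coding sequence with 2 differing bases. The stretch is printed here because these members had the largest fold changes between the groups. Capitals mark the differing bases. The stretch lies in exon 2 of Irx3 (chr8:91800491-91800639, minus strand) and in exon 4 of Irx6 (chr8:92677281-92677429, plus strand), and it holds the code of the third homeodomain helix, which contacts DNA.
Irx3: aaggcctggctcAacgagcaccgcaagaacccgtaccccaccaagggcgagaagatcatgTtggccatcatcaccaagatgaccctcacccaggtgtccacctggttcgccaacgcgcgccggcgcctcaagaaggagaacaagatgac
Irx6: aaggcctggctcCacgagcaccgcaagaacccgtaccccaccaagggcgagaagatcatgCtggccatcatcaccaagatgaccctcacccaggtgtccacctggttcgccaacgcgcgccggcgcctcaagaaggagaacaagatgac
No window of 100 bases, the read length, was identical between any 2 members. With up to 2 mismatches allowed, 56 of the 3271 windows of Irx6 and 56 of the 2511 windows of Irx3 matched the other gene. The other 14 pairs of members had 0 such windows, and their longest stretch with up to 2 mismatches was 94 bases. Read assignment between Irx3 and Irx6 is thus uncertain for a small part of each transcript.

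Over their whole length the proteins paired across the clusters. Irx2 and Irx5 were identical at 56.4% of aligned residues, Irx1 and Irx3 at 53.2%, and Irx4 and Irx6 at 48.7%, and each of these genes had its highest identity with the named partner. The remaining pairs lay between 44.4% and 50.4%. Irx3 and Irx6, which share the longest stretch of transcript, were identical at 44.9% of aligned residues, among the lowest values.

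**Figure D1:**
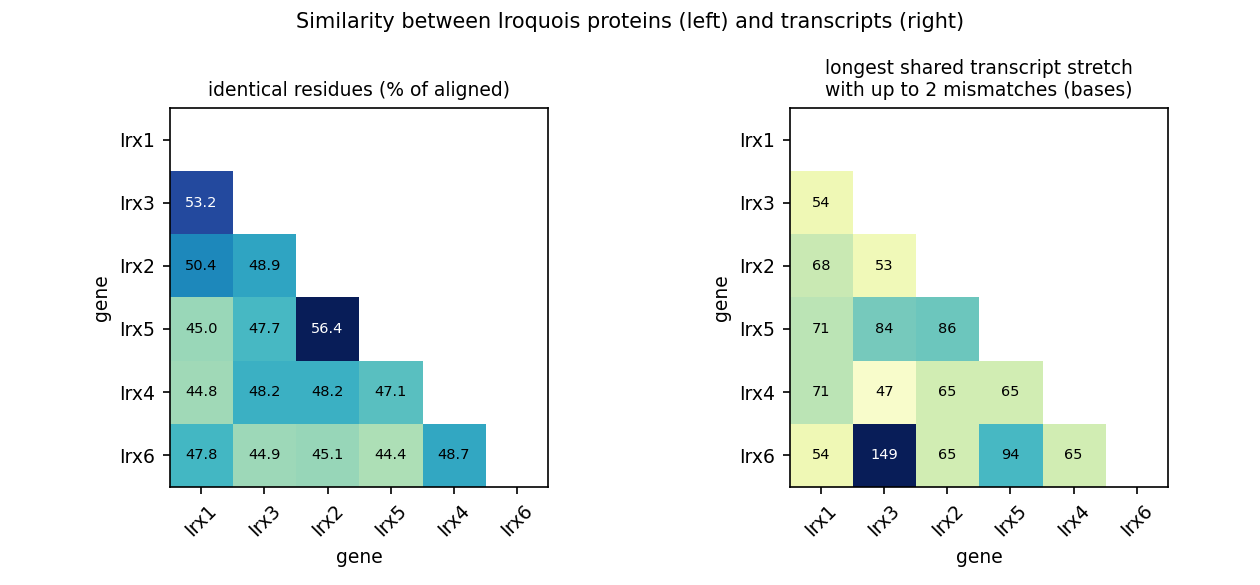
Similarity between the Iroquois genes, with the genes on both axes in the order that puts cross-cluster partners side by side. The left panel gives identical residues in percent of aligned residues, with the highest value for Irx2 and Irx5 (56.4%), and the right panel gives the longest transcript stretch shared with up to 2 mismatches in bases, with 149 bases for Irx3 and Irx6 and at most 94 for any other pair.

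The deletion was checked first on the targeted genes. Ring1, which encodes Ring1a, was at 16.8, 22.1 and 21.1 CPM (read counts scaled to a common library size) in controls 1 to 3 and at 3.23, 7.09 and 4.88 CPM in mutants 1 to 3. Ring1 fell, and its log2 fold change, mutant against control, was -1.98 (SE 0.33, adjusted p = 0.0113 by the quasi-likelihood test of edgeR, adjusted after Benjamini and Hochberg). Rnf2, which encodes Ring1b, had control and mutant means of 59.8 ± 6.91 and 67.0 ± 3.68 CPM (SD, n = 3 each) and a log2 fold change of 0.17 (SE 0.17, edgeR adjusted p = 0.736). A base substitution changes no count, and without knowing what the minus allele removes the Rnf2 count checks neither allele.

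Library totals were 14335156 to 18811587 counts, so 1 CPM stood for 14.7 to 18.3 reads, and the upper limit that a count of 0 allows, 3 counts, was 0.164 to 0.204 CPM. Limits and intervals cover counting error only, because the amplified reads carry no molecular identifiers. Of 14345 genes tested over the whole table, 430 were called at an adjusted p under 0.05, 372 higher and 58 lower in the mutants, and the median log2 fold change was 0.00. Hair follicle markers were present in every library, with Sox9 at 535 ± 194 CPM in controls and 574 ± 303 in mutants and Lhx2 at 333 ± 69.5 and 248 ± 30.4 CPM. Of the 12 follicle markers tested, 1 was called, Lgr5, lower in the mutants at 83.6 ± 1.97 against 178 ± 37.7 CPM (edgeR adjusted p = 0.0125). A further edgeR fit added the replicate number as a block, which assumes that the numbers pair the samples. With this replicate block 5 of the 12 were called, beside 9.38% of all genes. Krt17 (edgeR adjusted p = 0.00366) and Krt5 (0.0476) were higher, and Lgr5 (0.00201), Shh (0.0056) and Edar (0.0385) lower. The extraction protocol speaks of interfollicular epidermis sorted as Sca1-positive, yet Ly6a, which encodes Sca1, was at only 0.851 ± 0.411 CPM in controls and 1.23 ± 0.245 in mutants. Of the other markers of interfollicular epidermis, Krt1 and Krt10 were abundant and made up most of the summed list. Krt1 was at 3355 ± 764 CPM in the controls and 2124 ± 509 CPM in the mutants. Krt10 was at 1356 ± 142 and 981 ± 276 CPM in the same order. The summed list spanned 3817 to 5279 CPM in controls and 2308 to 3855 CPM in mutants. Lor and Ivl were low, with higher means in the mutants. Lor was at 4.065 ± 1.97 and 6.345 ± 3.44 CPM, and Ivl at 0.776 ± 0.289 and 1.70 ± 0.615 CPM. Flg, also on this list, is not among the symbols of the count files. Of this list 0 genes were called, and Krt1 was called lower with the replicate block (edgeR adjusted p = 0.00154). The labels do not resolve which gate these libraries came from, and the part of these markers in the results was not tested. Since the libraries are bulk samples of sorted cells, more cells that express a gene and more RNA of it per cell cannot be told apart.

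In the controls the family was expressed mainly from the chromosome 13 cluster. Irx2, which in other tissues is known from limb, heart and neural development, had the most reads. It was at 284, 295 and 352 CPM in controls 1 to 3 and at 226, 232 and 185 CPM in mutants 1 to 3. All 3 mutants lay below all 3 controls. The means were 310.5 ± 36.7 and 214.6 ± 26.0 CPM (SD, n = 3 each), and the fitted log2 fold change, mutant against control, was -0.53 (SE 0.16). Irx2 was the only member with a lower mean in the mutants.

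Irx4, known for its ventricle-restricted expression in the heart, changed in the opposite direction to its neighbour Irx2. Its levels were 155, 152 and 172 CPM in the controls and 241, 219 and 205 CPM in the mutants, so that the lowest mutant lay above the highest control. The means were 159.7 ± 10.9 and 222 ± 18.6 CPM, a log2 fold change of 0.47 (SE 0.14). Among the members Irx4 had the smallest spread relative to its mean in the controls.

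Irx1, which shares many embryonic expression sites with Irx2, was at 73.4, 79.5 and 107.8 CPM in the controls and at 109.2, 111 and 129 CPM in the mutants. Control 3 lay just under mutant 1, and the groups were apart by that margin only. The means were 86.9 ± 18.3 and 117 ± 11.1 CPM, a log2 fold change of 0.42 (SE 0.18).

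Both lowly expressed members lie in the chromosome 8 cluster. Irx3, a regulator of ventral neural tube and limb patterning, was at 3.54, 2.26 and 8.79 CPM in the controls (52, 36 and 155 reads) and at 14.8, 18.6 and 24.98 CPM in the mutants (270, 312 and 374 reads). Every mutant was above every control, and control 3 was the highest control. The means were 4.86 ± 3.46 and 19.4 ± 5.15 CPM, a log2 fold change of 1.99 (SE 0.47) that rose to 2.76 when control 3 was left out.

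Irx6, known from the retina and the developing nervous system, was barely detected in the controls. They held 1, 0 and 0 reads, all at or under the limit that a count of 0 allows, and the mutants held 32, 48 and 18 reads, or 1.75, 2.86 and 1.202 CPM. The ratio of summed reads, scaled for library size, was 94.6, with an exact 95% interval of 16.6 to 3773 that covers counting error only. The fitted log2 fold change of 6.09 (SE 1.11) depends on the prior count where a group holds 1 read. The controls had 243 reads of Irx3 in all beside this 1 read of Irx6. Even in the mutants Irx6 stayed the least abundant member, at 1.94 ± 0.844 CPM.

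Irx5, a partner of Irx3 in heart and limb development, was the 1 member whose groups overlapped. Its controls were at 44.5, 48.7 and 79.9 CPM and its mutants at 71.7, 79.2 and 106 CPM, so that control 3 lay above mutants 1 and 2. The means were 57.7 ± 19.3 and 85.5 ± 17.8 CPM, a log2 fold change of 0.57 (SE 0.25). Within each replicate number the mutant was the higher of the pair.

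**Figure D2:**
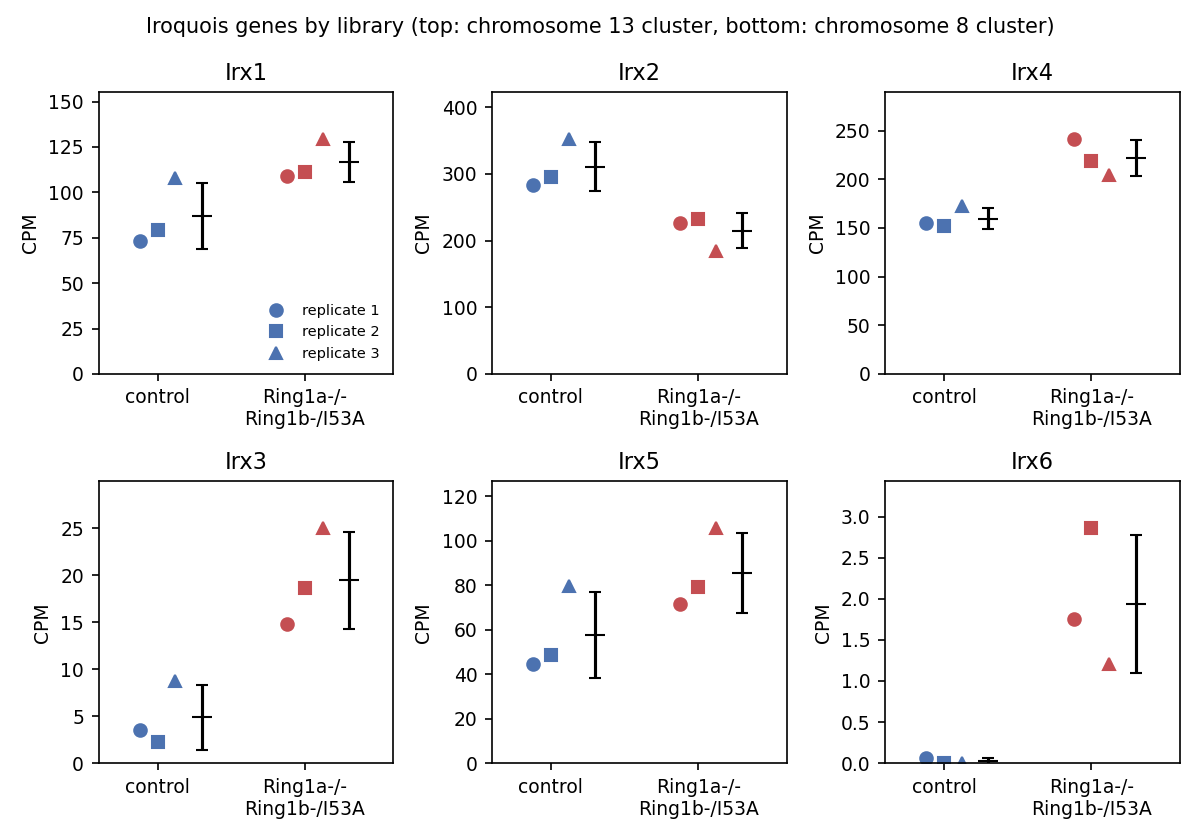
Level of each Iroquois gene by library in CPM (y axis, a linear scale from 0 that differs between panels), for control and Ring1a-/- Ring1b-/I53A libraries, with 1 point per library, marker shape for the replicate number and the bar giving the mean ± SD (n = 3). The mutant points lie above the control points for Irx1, Irx4, Irx3 and Irx6 and below them for Irx2, and control 3 lies above mutants 1 and 2 for Irx5.

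Without overlap between the groups were thus 5 of the 6 members, where 21.2% of the 14345 genes tested had no overlap. In the fit over all genes 1 of the 6 members, Irx6, was called, where 3.0% of genes were called. The same replicate numbers appear in both groups, and same-numbered libraries deviated together. With the replicate number added as a block, the fit called all 6 members, 5 higher and Irx2 lower, where 9.38% of genes were called with the block. With this pairing the log2 fold changes were 0.44 (SE 0.12) for Irx1, -0.53 (SE 0.13) for Irx2, 0.47 (SE 0.11) for Irx4, 2.16 (SE 0.32) for Irx3, 0.60 (SE 0.13) for Irx5 and 6.07 (SE 1.21) for Irx6. Nothing is read from these shares about the members, because the same contrast chose them. All 6 passed the filter on low counts, Irx6 by its mutant reads alone. Irx3 and Irx6 were both called by DESeq2, by limma-voom, with library totals only and without the filter on low counts. Over all genes these fits called 986, 424 and 487 of 14345 and 636 of 20001, in this order. The remaining alternatives on all 6 libraries without the block called Irx6 alone, beside 419 of 14345 and 429 of 13602 genes. Without control 1, control 2, mutant 1 or mutant 2 none of the members was called. Over all genes these fits called 193 of 14793, 277 of 14867, 218 of 14742 and 163 of 14759, in this order. Without control 3 Irx3, Irx5 and Irx6 were called, beside 664 of 14803 genes. Without mutant 3 Irx6 alone was, beside 331 of 14811 genes.

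**Figure D3:**
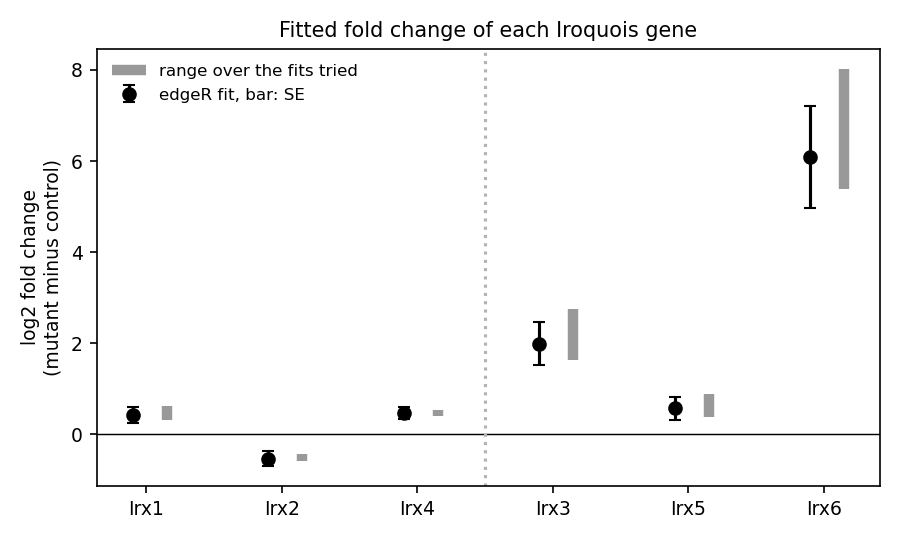
Fitted log2 fold change, mutant minus control, of each Iroquois gene (y axis, log2 scale), with the chromosome 13 cluster left and the chromosome 8 cluster right of the dotted line. Points with bars are the edgeR fit ± SE, and grey bars span all fits tried, from 0.31 to 0.62 for Irx1, -0.59 to -0.42 for Irx2, 0.41 to 0.54 for Irx4, 1.64 to 2.76 for Irx3, 0.38 to 0.89 for Irx5 and 5.38 to 8.02 for Irx6.

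Control 3 and mutant 3 stood out in their groups for 3 members. Within the controls, library 3 was the highest for Irx1, Irx3 and Irx5, and within the mutants library 3 was again the highest for the same genes. For Irx2 and Irx4, control 3 was the highest control and mutant 3 the lowest mutant. For Irx6 mutant 3 was also the lowest mutant. Control 3 also had the highest summed level of the 10 dermal markers, at 1026 CPM against 589 and 616 in the other controls, and of the 4 Merkel cell markers, at 37.0 CPM against 18.3 and 13.98. Mutant 3 had the lowest dermal sum of the mutants, 658 CPM against 668 and 928. Its Merkel cell sum was the highest, 30.0 CPM against 27.2 and 26.3. Most of that sum was Piezo2, at 18.2, 10.5 and 27.95 CPM in the controls and 25.1, 23.0 and 29.05 CPM in the mutants. Atoh1 was highest in control 3 (0.0681, 3.135 and 4.71 CPM) but lowest in mutant 3 (1.75, 3.22 and 0.601 CPM). Krt20 was highest in library 3 of both groups, and Sst in mutant 1. The summed melanocyte and endothelium lists were, like Irx1, Irx3 and Irx5, highest in library 3 of both groups. Melanocyte sums were 15.0, 18 and 23.4 CPM in the controls and 13.5, 12.5 and 32.7 CPM in the mutants, and endothelium sums 11.1, 11.5 and 14.3 CPM and 12.8, 13.4 and 25.3 CPM. The summed follicle list, most of it Krt5, had this order too, with Sox9 at 362, 499 and 745 CPM in the controls and 392, 407 and 924 CPM in the mutants. Krt5, Krt14, Krt17, Epcam and Itga6 were also highest in library 3 of both groups. Lhx2, Lgr5, Tbx1 and Runx1 were not, and Shh and Edar were lowest there. Shh was at 103, 151 and 47.9 CPM in the controls and 63.8, 90.1 and 27.6 CPM in the mutants. Edar was at 105, 119 and 44.45 CPM and 72.3, 94.4 and 27.3 CPM in the same order. Of the dermal list Sox2 was at 0 reads in controls 1 and 2, and of the Merkel cell list Krt20 was at 0 in control 1 and mutants 1 and 2 and Sst in all controls and mutant 3. Of the melanocyte list Mlana was at 0 in control 2 and Tyrp1 in control 1, and no endothelium marker was at 0. Single members of these lists departed from their sums. Pmel and Tyrp1 were highest in control 2, Kdr and Tek in control 1, and Tek in mutant 2. Other summed lists were not highest in mutant 3. Schwann cell and nerve sums were 5.42, 5.42 and 4.21 CPM in mutants 1 to 3. Immune sums were 1.205, 0.774 and 1.00 CPM, and muscle sums 1.86, 1.01 and 1.27 CPM. Among the tested markers, 7 dermal, 2 Merkel cell, 4 melanocyte and 3 endothelium genes, none was called by edgeR, with or without the replicate block. Their part in the Iroquois levels was not tested.

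Levels of different genes were compared per kb of annotated exon. In the controls the order was Irx2 at 94.6 ± 11.2 CPM per kb, Irx4 at 61.3 ± 4.19, Irx1 at 33.2 ± 6.995, Irx5 at 18.5 ± 6.18, Irx3 at 1.76 ± 1.25 and Irx6 at 0.00673 ± 0.0117. In the mutants Irx4 came first at 85.1 ± 7.13 CPM per kb, then Irx2 at 65.4 ± 7.91, Irx1 at 44.5 ± 4.24, Irx5 at 27.4 ± 5.70, Irx3 at 7.04 ± 1.87 and Irx6 at 0.575 ± 0.250. Within each group no neighbours in the order had overlapping ranges, and all 3 libraries gave the same order. The levels spanned the range of the transcriptome. Irx2 was above 98.6% of the 14065 tested genes with a length in the controls, and Irx3 above 30.0%. In the mutants Irx3 was above 61.1% of them and Irx6 above 11.2%.

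The exchange of first place between Irx2 and Irx4 rested on the length used. Per kb of exon the ratio of Irx4 to Irx2 was 0.615 to 0.688 among controls and 1.19 to 1.39 in the mutants, and the relative change between the groups is the same for any choice of lengths. Divided by coding length instead, Irx2 remained first in the mutants, at 151 CPM per kb against 143.5 for Irx4, although Irx4 was ahead in mutant 3, at 132 against 130.0 CPM per kb.

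The summed level of the family differed less between the groups than its makeup did. Controls 1 to 3 had sums of 189.6, 195 and 243 CPM per kb and mutants 1 to 3 sums of 232, 230.3 and 227, with control 3 above all mutants. The share of Irx2 was 44.1% to 46.2% in the controls and 24.8% to 30.8% in the mutants, and the share of Irx4 was 27.1% to 31.4% and 34.5% to 39.9%. The chromosome 8 cluster gave 8.20% to 11.8% of the summed level in the controls and 12.4% to 19% in the mutants. Inside that cluster the ratio of Irx5 to Irx3 was 8.03 to 19.1 in the controls and 3.74 to 4.29 in the mutants. These shares and ratios do not depend on the scaling between libraries.

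**Figure D4:**
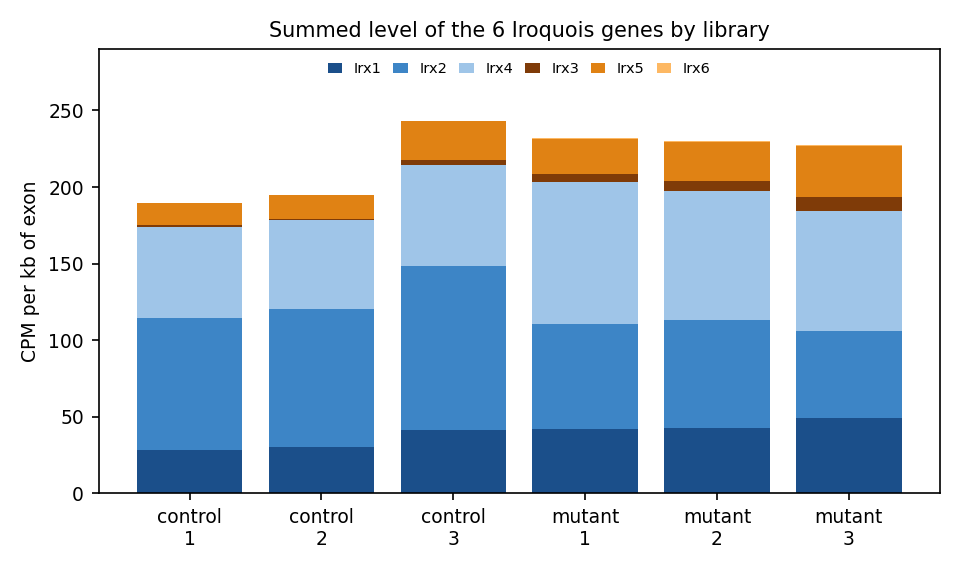
Summed level of the 6 Iroquois genes by library in CPM per kb of exon (y axis, from 0), with blue segments for the chromosome 13 cluster and brown to orange segments for the chromosome 8 cluster. Control and mutant stand for the libraries of each genotype, numbered by replicate, and the Irx2 segment is 44.1% to 46.2% of the bar in controls and 24.8% to 30.8% in mutants.

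Promoters rich in CpG are known as sites where Polycomb complexes gather, and the promoters of 3 of the 6 members, Irx2, Irx3 and Irx4, were matched in RefSeq (GRCm38.p6). In the window from 250 bases before to 50 after the start, Irx2 had 25 CpG, Irx3 14 and Irx4 31, beside a median of 7 over 32841 promoters. At least as many CpG as in Irx2 were found in 18.4% of all promoters, at least as many as in Irx3 in 36.3% and at least as many as in Irx4 in 10.6%. The first 250 bases of the Irx3 window lie inside an annotated GENCODE exon of Irx3, so its count is of transcribed sequence and not of the region before the GENCODE start. CpG was searched as the letters CG, which read the same on both strands. The upstream sequences of Irx2 (chr13:72628570-72628819, plus strand) and Irx4 (chr13:73260247-73260478, plus strand, ending where the annotated exon begins) are shown because these neighbours differed between the groups in opposite directions. Capitals mark each CG.
Irx2: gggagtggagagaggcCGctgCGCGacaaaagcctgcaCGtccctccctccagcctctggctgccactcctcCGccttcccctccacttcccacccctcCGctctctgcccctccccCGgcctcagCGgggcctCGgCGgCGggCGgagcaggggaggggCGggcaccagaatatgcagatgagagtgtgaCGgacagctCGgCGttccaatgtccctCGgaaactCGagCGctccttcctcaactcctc
Irx4: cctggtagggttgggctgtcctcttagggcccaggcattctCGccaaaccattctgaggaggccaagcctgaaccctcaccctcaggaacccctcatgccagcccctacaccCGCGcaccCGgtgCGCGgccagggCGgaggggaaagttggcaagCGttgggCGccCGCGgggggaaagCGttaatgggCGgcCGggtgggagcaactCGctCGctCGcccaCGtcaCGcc
Both shown stretches hold 19 CG. No chromatin was measured in these samples, so the sequences are a description only.

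Genes around the clusters were tested next. They were listed by position, and the rule for the family did not use their counts. This list and the TALE and circuit lists below were still chosen with earlier results of these data known. Of 41 listed neighbours inside the clusters or within 1 Mb of their ends, 24 were tested, and 2 of them rose and 0 fell in the mutants, with a median log2 fold change of 0.10. That is 8.33% of those tested, beside 3.0% of all genes. At an unadjusted p under 0.05 there were 5 of 24, beside 2143 of 14345 over all genes. With the replicate block 3 rose and 2 fell, beside 9.38% of all genes called.

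Crnde, a long non-coding RNA gene inside the chromosome 8 cluster, starts 1.5 kb from Irx5 and is transcribed away from it (chr8:92326033-92356120, minus strand). It was at 20.6, 15.6 and 18.0 CPM in the controls and 50.9, 36.9 and 37.8 CPM in the mutants, without overlap. It rose by a log2 fold change of 1.21 (SE 0.22, edgeR adjusted p = 0.016), and remained called in 3 of the 6 fits that left out 1 library, with an adjusted p of at most 0.0876, without mutant 1. Its divergent partner Irx5 had a log2 fold change of 0.57. Gm20554, which stands in the same divergent position 0.3 kb from Irx2 on chromosome 13, had a control level of 60.2 ± 1.81 CPM and a mutant level of 58.8 ± 27.5 CPM (log2 fold change -0.03, SE 0.32, edgeR adjusted p = 0.981).

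Nkd2, an inhibitor of Wnt signalling 548.9 kb beyond Irx4, was at 4.63, 3.01 and 5.10 CPM in the controls and 11.4, 11.7 and 10.7 CPM in the mutants. It rose by a log2 fold change of 1.41 (SE 0.32, edgeR adjusted p = 0.0476). This call was kept in 1 of the 6 fits that left out 1 library, with an adjusted p of up to 0.175, without mutant 2.

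The genes next to the outer members gave no call. Fto, an RNA demethylase gene 130.1 kb beyond Irx3, averaged 76.3 ± 7.83 CPM over the controls and 73.0 ± 2.94 CPM over the mutants (edgeR adjusted p = 0.912). Mmp2, a matrix metalloprotease gene 146.3 kb beyond Irx6, was at 20.8 ± 1.62 and 26.1 ± 13.6 CPM (adjusted p = 0.74), and Ndufs6, a subunit gene of mitochondrial complex I 50.2 kb beyond Irx4, at 13 ± 1.93 and 13.2 ± 2.27 CPM (adjusted p = 0.985). On the Irx1 side of the chromosome 13 cluster 0 listed genes within 1 Mb were tested. The log2 fold change of Fto was -0.06 (SE 0.16), beside 1.99 for Irx3.

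Outside the rule for named genes, 3 further neighbours passed with the replicate block and were named after their values were seen. They were Tppp, a tubulin-binding protein gene, with 134 ± 89.1 CPM in controls and 207 ± 50.4 CPM in mutants (edgeR adjusted p with the block = 0.0334), Slc6a2, the noradrenaline transporter gene, with 18.3 ± 12.97 and 5.35 ± 1.01 CPM (0.0482), and Chd9, a chromatin remodeller gene, with 245.6 ± 22.4 and 187 ± 12.9 CPM (0.0456). Without the block, Slc6a2 was also called by DESeq2, without the filter on low counts and in 1 of the 6 fits that left out 1 library, and Tppp in 1 of those 6. In a window of 0.5 Mb 1 of 14 tested neighbours was called, and in a window of 2 Mb 5 of 49 were, beside 3.0% of all genes. All of them were higher in the mutants, as were 372 of the 430 genes called over the whole table. The 3 added by the wider window were Tox3, from 46.2 to 106 CPM, Gnao1, from 4.18 to 41.1 CPM, and Cpne2, from 11.9 to 27.5 CPM.

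**Figure D5:**
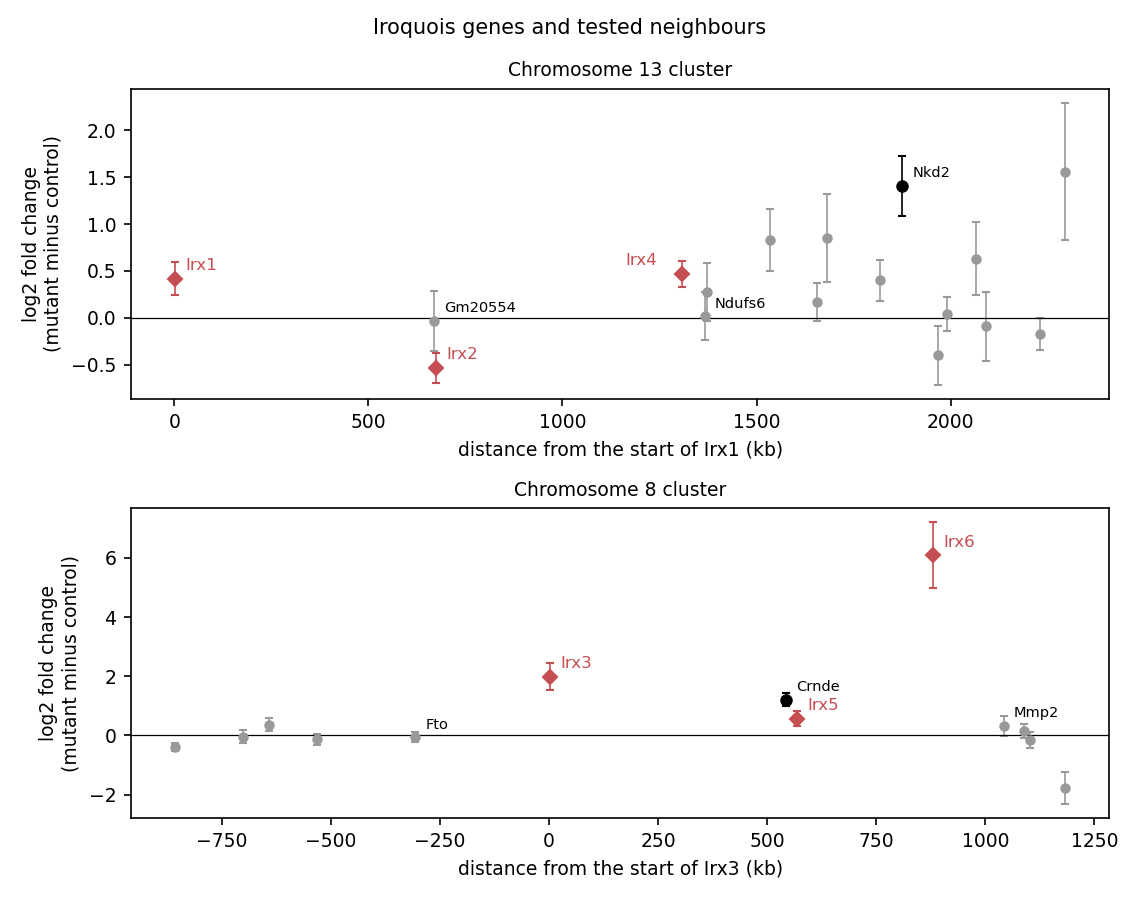
Log2 fold change, mutant minus control, (y axis, ± SE) of the Iroquois genes (red diamonds), called neighbours (black) and other tested neighbours (grey) against distance in kb from the start of the first gene of each cluster, with separate y scales for the clusters. Crnde (1.21) and Nkd2 (1.41) are the called neighbours, and Fto, beyond Irx3, lies near 0.

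The other TALE homeobox genes share the homeodomain type of the Iroquois family, and many of their products pair with other homeodomain proteins on DNA. Of 12 listed, 11 were tested, and 3 rose and 0 fell in the mutants, with a median log2 fold change of 0.41 beside 0.00 over all genes. The called share was 27.3%, beside 3.0% of all genes, and with the replicate block 5 rose, beside 9.38% of all genes called. Meis2 was at 40.2, 34.8 and 49.2 CPM in the controls and 147, 179 and 126 CPM in the mutants, and rose by 1.86 on the log2 scale (SE 0.20, edgeR adjusted p = 0.00116). Meis1, its close relative, rose from a mean of 16.1 ± 2.72 CPM to 40.2 ± 2.70 CPM, by a log2 fold change of 1.32 (SE 0.20, edgeR adjusted p = 0.00841). Both Meis genes were called in all 6 fits that left out 1 library.

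Pknox2, a cofactor gene related to Meis, was at 0.340, 0.125 and 1.02 CPM in the controls and 4.54, 5.12 and 7.35 CPM in the mutants. It rose by a log2 fold change of 3.47 (SE 0.70, edgeR adjusted p = 0.0286), but was called in 1 of the 6 fits without 1 library, with an adjusted p of up to 0.116, without control 1. Meis3 averaged 7.36 ± 4.08 CPM among controls and 26.8 ± 8.04 CPM among mutants (edgeR adjusted p = 0.051, 0.00419 with the replicate block). Pbx4 was at 0.242 ± 0.264 and 1.16 ± 0.334 CPM in the same order (edgeR adjusted p = 0.281). Mkx did not pass the filter on low counts. Other TALE genes were lower in the mutants, and they were named after their values were seen. Pknox1 had a log2 fold change of -0.44 (edgeR adjusted p = 0.298) and Pbx3 of -0.36 (0.427), both without overlap between the groups. Pbx2, Tgif1 and Tgif2 lay at -0.02, -0.09 and -0.01.

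Genes known to act upstream of, beside or downstream of Iroquois factors in heart, neural tube, limb and skin were listed as a circuit. Of the 32 listed, 14 were tested, and 2 rose and 0 fell, or 14.3% beside 3.0% of all genes, with a median log2 fold change of 0.20. The heart and neural genes on the list, among them Myl2, Myh7, Bmp10, Olig2 and Nkx2-2, were mostly under the filter. With the replicate block 4 rose and 2 fell, beside 9.38% of all genes called.

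Bmp4, a secreted signal of the skin and an early regulator in heart and limb, was at 36.5, 34.5 and 37.5 CPM in the controls and 68.6, 89.0 and 70.9 CPM in the mutants. It rose by a log2 fold change of 1.07 (SE 0.18, edgeR adjusted p = 0.0115), and was called in 4 of the 6 fits without 1 library, with an adjusted p of up to 0.0707, without mutant 2. Tbx3, a T-box repressor of limb and heart conduction tissue, was at 1.22, 0.188 and 4.37 CPM in the controls and 27.7, 20.9 and 23.1 CPM in the mutants. It rose by 3.61 on the log2 scale (SE 0.72, edgeR adjusted p = 0.0267), with a call in 2 of the 6 fits without 1 library and an adjusted p of up to 0.119, without control 1. Its log2 fold change over those fits ran from 3.07 to 5.10.

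The next genes of the circuit list were not called by edgeR with group as the only term. The chemokine receptor gene Cxcr4 averaged 15.7 ± 4.49 CPM in the controls and 6.64 ± 2.14 CPM in the mutants (edgeR adjusted p = 0.1, 0.0161 with the replicate block), and its ligand gene Cxcl12 was at 5.55 ± 5.24 and 18.7 ± 10.9 CPM (0.275, and 0.00814 with the block). Each was also called in 1 of the 6 fits without 1 library, and Cxcr4 by DESeq2. Gja1, a gap junction gene, was at 560 ± 74.0 and 724 ± 109 CPM (0.338, and 0.0312 with the block), and Kcnh2, a cardiac potassium channel gene, at 2.88 ± 2.15 and 7.70 ± 2.77 CPM (0.343). Shh, the morphogen of the hair bud and the neural floor plate, was named after its values were seen. Its levels were 103, 151 and 47.9 CPM in controls 1 to 3 and 63.8, 90.1 and 27.6 CPM in mutants 1 to 3, lower in the mutant of every pair (edgeR adjusted p = 0.521, 0.0056 with the block).

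The genes whose levels over the 6 libraries were most like each member's were found by the Pearson correlation of log2 CPM among 14344 genes. These values describe 6 libraries that all genes share, and the highest of so many are high by selection. For Irx1 they were Igf2bp2 (0.997), an RNA-binding protein gene, Plxnd1 (0.995), a semaphorin receptor gene, and Stbd1 (0.991). Plxnd1 was also first for Irx5 (0.991), followed by Man1a (0.991) and Rtn1 (0.991). Irx3 was most like Pitpnc1 (0.999), Chd7 (0.996), a chromatin remodeller gene, and Rin3 (0.996).

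Irx4 was most like Syt14 (0.999), of the synaptotagmin family, Slc4a4 (0.995), a bicarbonate transporter gene, and Col2a1 (0.993), the cartilage collagen gene. For Irx6 the genes were Cadps2 (0.999), which acts in vesicle release, Fuca2 (0.999) and Sh3gl2 (0.998). Cadps2 also had 1, 0 and 0 reads in the controls, and its mutants averaged 2.45 ± 0.930 CPM. Irx2, the member with the lower mean in the mutants, was most like Plrg1 (0.997), a splicing factor gene, Ube2d-ps (0.995) and Kiz (0.995). The means of Plrg1 were 30.6 ± 2.37 CPM for controls and 24.7 ± 1.90 CPM for mutants, without a call (edgeR adjusted p = 0.509).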

How the data were processed

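Each library's file, as deposited by the authors, gives raw read counts by gene symbol as whole numbers. Per the labels, 10 ng of total RNA per library was amplified and read as single reads of 100 nucleotides. Per the submitters' processing notes, the tools were DESeq2 1.6.3, HTSeq 0.6.1, Cufflinks 2.2.1 and TopHat2 2.0.13, on mm10, with their roles, the strand setting and the annotation not given in the sources used here.

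Counts went into edgeR 4.0.16 (R 4.3.3) and its two-sided quasi-likelihood test, with TMM factors, filterByExpr, a model of group alone and p-values adjusted by Benjamini-Hochberg over 14345 genes. The steps were tested on simulated data. CPM values use TMM effective library sizes, and log2 CPM for likeness a prior count of 2. Alternatives used RLE factors, library totals, other filters, DESeq2 1.42.0, limma-voom (limma 3.58.1), the replicate number as a block and leaving out each library. No pair of libraries agreed within sampling noise (chi-square per degree of freedom at least 25.1 over 15 pairs).

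Replicate numbers are in the labels without a meaning. Over genes, the deviation from the group mean correlated between same-numbered libraries at 0.319 to 0.536 over 10871 genes, those of other control and mutant pairs at -0.448 to 0.204. As all 3 passed 0.1, the numbers were taken to pair the samples, from the data. Control 1 and mutant 2, of different numbers, passed 0.1 too, at 0.204. The pairing is therefore an assumption of the fit with the replicate block.

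Coordinates, lengths and transcripts came from GENCODE M21 (GRCm38, the build also called mm10). Proteins were translated from its coding sequences, in place of the planned RefSeq proteins, and aligned globally with Biopython 1.88 (BLOSUM62, gap opening 10, extension 0.5). The members and lists were chosen with earlier results of these data known. Named genes were the members, Ring1 and Rnf2, the nearest and called neighbours, up to 6 genes each of the TALE and circuit lists (called ones first, then by p), and the 3 genes most like each member, passing over unnamed models. Of the genes this rule names, 1 is not reported here.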

Additional observations from a re-analysis of the deposited data

How the results depend on the processing

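The fold change of each of the 6 members kept its sign under the 13 alternatives run for it. The count of called genes was 430, against 986 with DESeq2 (739 higher, 247 lower), 1345 with the replicate block (873 higher, 472 lower) and 163 to 664 when 1 library was left out, with the lowest count without mutant 2 and the highest without control 3. With the replicate block 5 neighbours, 5 TALE genes and 6 circuit genes were called, against 2, 3 and 2. Leaving out 1 library gave 0 to 4 neighbours and 0 to 4 circuit genes, and the number of TALE genes stayed within 1.5 times. Windows of 0.5 Mb and 2 Mb gave 1 of 14 and 5 of 49 tested neighbours called. The log2 fold change of Irx3 ran from 1.64 to 2.76 and that of Irx6 from 5.59 to 8.02 when 1 library was left out, and limma-voom gave 5.38 for Irx6. With coding length in place of exon length, Irx2 was at rank 1 and Irx4 at rank 2 in the mutants. The cause of these shifts was not tested. With 0 to 48 reads per library, depth limits how well the size of the Irx6 difference is known.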
